A study of Mus musculus with 30 samples.

Results

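The genes described here are the chemokines and chemokine receptors of the mouse ventral prostate (VP). Left out are the monocyte and eosinophil chemoattractants clustered on chromosome 11 (Ccl2, Ccl7, Ccl8, Ccl11 and Ccl12). Members were chosen by symbol: every gene whose name starts with Ccl, Cxcl, Xcl, Cx3cl, Ccr, Cxcr, Xcr, Cx3cr or Ackr and a number, plus Ccrl2, without pseudogenes. The symbols gave 63 of the 39179 gene identifiers in the count tables, of which 62 are described here, 39 ligands, 18 receptors and 5 atypical receptors. RNA had been sequenced from the VP of C57BL/6 mice fed normolipidic diets from weaning, in which the fat came from linseed oil (the LO group), soybean oil (SO) or pork lard (PF). There were 5 mice for each diet after 12 weeks and another 5 after 32 weeks, 30 mice in 6 groups, all of one strain, and the labels name no transgene or further treatment. Mice at 32 weeks were also older, so time on diet and age cannot be told apart.

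Chemokines are small secreted proteins that guide the movement of leukocytes, and most act by binding to G protein-coupled receptors on the cells they attract. Some are made constantly by epithelium and stroma and hold leukocytes in a tissue, while others are switched on by inflammatory signals. Atypical receptors bind chemokines without the usual G protein signal and remove or transport them, which shapes the gradients that the signalling receptors read. In bulk tissue the ligands can come from epithelium, stroma, vessels or leukocytes, whereas most of the receptors are read from leukocytes, and fewer cells of a type cannot be told apart from less RNA per cell.

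Each mouse gave between 27590631 and 41301707 counts on genes, and no 2 mice of a group differed by sampling noise alone. Tissue identity was checked with marker genes. The 6 markers of prostate luminal epithelium, among them probasin, summed to between 107000 and 335000 CPM (counts per 1000000 counts on genes), while 5 secretory genes of the seminal vesicle did not exceed 0.276 CPM in sum in any mouse. CPM were scaled by the trimmed mean of M-values (TMM) over all 30 mice.

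Not all members were expressed at a level that could be tested. There were 8 identifiers, extra copies of Ccl19, Ccl21 and Ccl27 genes, with no count in any of the 30 mice, which allows a level of up to 0.00295 CPM over all mice (3 counts of their total, counting error only). Another 4 (Ccl1, Ccl26, Cxcr1 and the chromosome 4 copy of Ccl21b) never had more than 3 counts in a mouse. Read pairs without a unique place in the genome were not counted, so a low count for a gene with near-identical copies, such as those of Ccl21 and Ccl27, is uncertain. edgeR's filter on low counts kept 38 members at 12 weeks and 43 at 32 weeks and with all mice together, and 19 passed in none of these. Ccl17, Ccl20, Ccr3, Ccr6 and Cxcr5 were tested at 32 weeks but not among the 12-week mice. The untested receptors Ccr4, Ccr8, Ccr10 and Ccr1l1 did not exceed 12 counts in any mouse. The neutrophil receptor Cxcr2 had 1 to 23 counts (median 4), and the neutrophil chemoattractants Cxcl3 and Cxcl5 had 0 to 12 and 0 to 60 (median 2 each), with the 60 in mouse 2 of the PF group at 32 weeks.

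Levels were compared between genes only as CPM per kb of exon. The highest members were epithelial or stromal ligands. Cxcl17, a chemokine of mucosal epithelia, stood at 58.2 CPM per kb on average over the 30 mice, followed by Cxcl14, a chemokine of resting epithelia, at 39.3 and by Cx3cl1 (fractalkine), a membrane-bound ligand for Cx3cr1, at 18.9. The atypical receptor Ackr3, which scavenges Cxcl12, came after them at 17.9 CPM per kb. Ligands known from myeloid cells and lymphoid stroma came next on this scale, with 14.2 for Ccl6, 12.7 for the B cell attractant Cxcl13 and 12.7 for the lymphatic ligand Ccl21a. The G protein-coupled receptors were low throughout. The highest of them on this scale were Ccr2 with 1.78 CPM per kb, Cxcr4 with 1.73 and Cx3cr1 with 1.61.

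**Figure D1:**
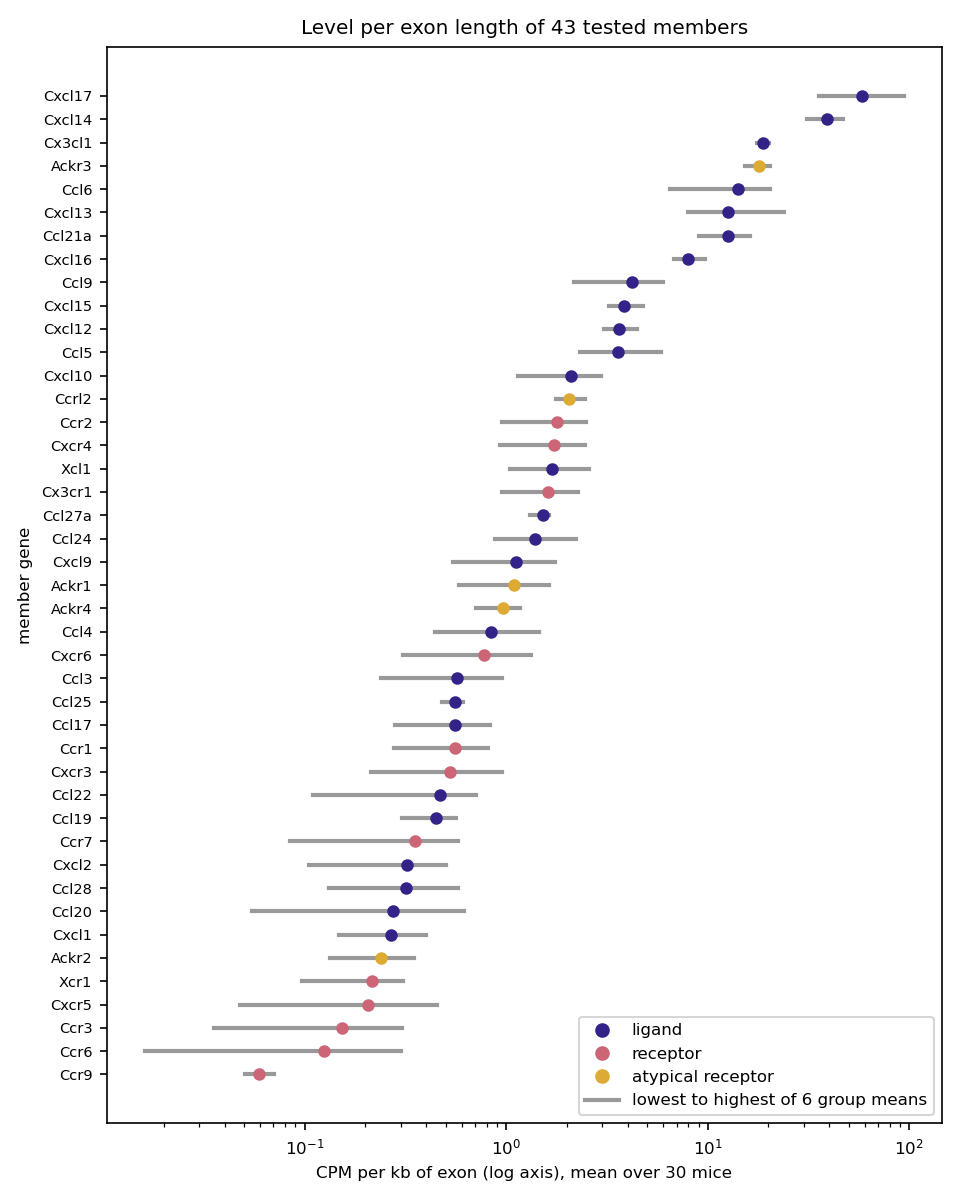
Level of the 43 tested members in CPM per kb of exon (log axis). Points are means over 30 mice, coloured by class, and grey lines run from the lowest to the highest of the 6 group means. Cxcl17 (58.2), Cxcl14 (39.3), Cx3cl1 (18.9) and Ackr3 (17.9) lead, and all 12 receptors lie at or under 1.78.

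The spread between mice of one group also differed among members. The coefficient of variation (SD over mean) of CPM within a group, taken as the median of the 6 groups, was 0.124 for Cx3cl1, 0.134 for Cxcl16 and 0.142 for Cxcl14. It was 1.06 for Ccr6 and 0.841 for its ligand Ccl20, and 0.789 for Cxcr5, the receptor that brings B cells to follicles.

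Between 12 and 32 weeks on the SO diet, 8 of the 12 tested receptors rose. With edgeR's quasi-likelihood test and Benjamini-Hochberg adjustment over 16605 genes, 16 of the 43 tested members were higher at 32 weeks and 0 were lower, beside 5.25% of all genes tested called higher and 1.22% called lower. DESeq2 called 18 higher and 0 lower, beside 6.74% and 2.38%, and 1 member, Cxcl14, was lower at an unadjusted p under 0.05, beside 7.11%. By class edgeR's calls were 8 of 12 receptors, 7 of 26 ligands and 1 of 5 atypical receptors. The median log2 fold change was 1.19 over the tested members, 1.66 over the receptors and -0.00 over all genes. Because 5 of these members did not pass the filter among the 12-week mice alone, these shares describe the members that passed, not the whole family. Cxcr5 and Ccr6, among the called receptors, are of this kind, and a fall of such members could hardly have been seen.

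Cx3cr1, the fractalkine receptor of monocytes and resident macrophages, had 4.56, 4.46, 4.02, 5.02 and 3.46 CPM in SO mice at 12 weeks and 7.56, 11.6, 8.55, 14.8 and 8.85 at 32 weeks. Every older mouse was above every younger one. The log2 fold change was 1.25 (SE 0.22, 5 mice against 5, adjusted p = 0.00266 by edgeR's quasi-likelihood test). Its ligand Cx3cl1 moved little, with a log2 fold change of -0.10 (SE 0.11, edgeR adjusted p = 0.692).

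Cxcr6, carried by resident and effector T cells, had 0.771, 0.677, 0.428, 0.582 and 0.523 CPM at 12 weeks and 1.95, 2.35, 1.32, 4.44 and 2.71 at 32 weeks in SO mice. Again no older mouse was as low as any younger one. The fold was 4.26 (log2 2.09, SE 0.37, edgeR adjusted p = 0.00266). Cxcr3, which brings effector T and NK cells to the interferon-induced ligands Cxcl9 and Cxcl10, had 0.335, 0.369, 0.263, 0.276 and 0.611 CPM at 12 weeks and 0.973, 0.952, 1.21, 3.78 and 1.29 at 32 weeks. Mouse 4 at 32 weeks stood far above the other older mice, though all 5 were above the younger group (log2 fold change 2.13, SE 0.44, edgeR adjusted p = 0.00603).

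Cxcr4, the Cxcl12 receptor of most leukocytes, went from 1.61, 1.54, 2.04, 1.75 and 1.45 CPM to 2.43, 4.37, 4.37, 7.58 and 3.53. Xcr1, a marker receptor of cross-presenting dendritic cells, went from 0.369, 0.677, 0.362, 0.429 and 0.320 CPM to 0.779, 1.73, 1.09, 2.52 and 0.735. Neither gene had an overlap between the groups, and both rose, by 1.41 (SE 0.32, edgeR adjusted p = 0.0104) and 1.66 (SE 0.39, edgeR adjusted p = 0.0118) on the log2 scale.

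The 3 receptors of lymphoid organisation also passed the test, from lower counts. Ccr7, which takes dendritic cells and naive T cells to lymphoid tissue, had 0.235, 0.154, 0.0988, 0.0919 and 0.262 CPM at 12 weeks and 0.292, 0.833, 0.561, 2.64 and 0.441 at 32 weeks. Its groups did not overlap, and it rose by 2.47 on the log2 scale (SE 0.75, edgeR adjusted p = 0.0446). Cxcr5 had 0.235, 0.123, 0.230, 0.0306 and 0.175 CPM at 12 weeks and 0.260, 0.922, 0.617, 5.18 and 0.559 at 32 weeks. Most of its difference in CPM came from mouse 4 (log2 fold change 3.23, SE 0.92, edgeR adjusted p = 0.0332). Ccr6, found on B cells and Th17 cells, had between 0 and 3 counts in the younger mice and 1, 21, 13, 77 and 6 counts in the older ones, and its groups overlapped (log2 fold change 4.10, SE 1.16, edgeR adjusted p = 0.0330). Cxcr5 and Ccr6 did not pass the filter among the 12-week mice, so their rise is in part given by how they entered the test. The calls of Ccr7, Cxcr5 and Ccr6 were the least stable among the receptors. That of Ccr7 was lost in 8 of 10 fits without 1 mouse, and those of Cxcr5 and Ccr6 in 6 of 10 each. Without mouse 4 of the older group the log2 fold changes were 1.64 for Ccr7, 1.88 for Cxcr5 and 2.89 for Ccr6, with edgeR adjusted p-values of 0.27, 0.282 and 0.206. Of the other 4 tested receptors, Ccr2, the receptor of the monocyte chemoattractants, had a log2 fold change of 1.08 (edgeR adjusted p = 0.0953), and Ccr1, Ccr3 and Ccr9 did not pass either, at 0.91, 1.66 and 0.43.

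**Figure D2:**
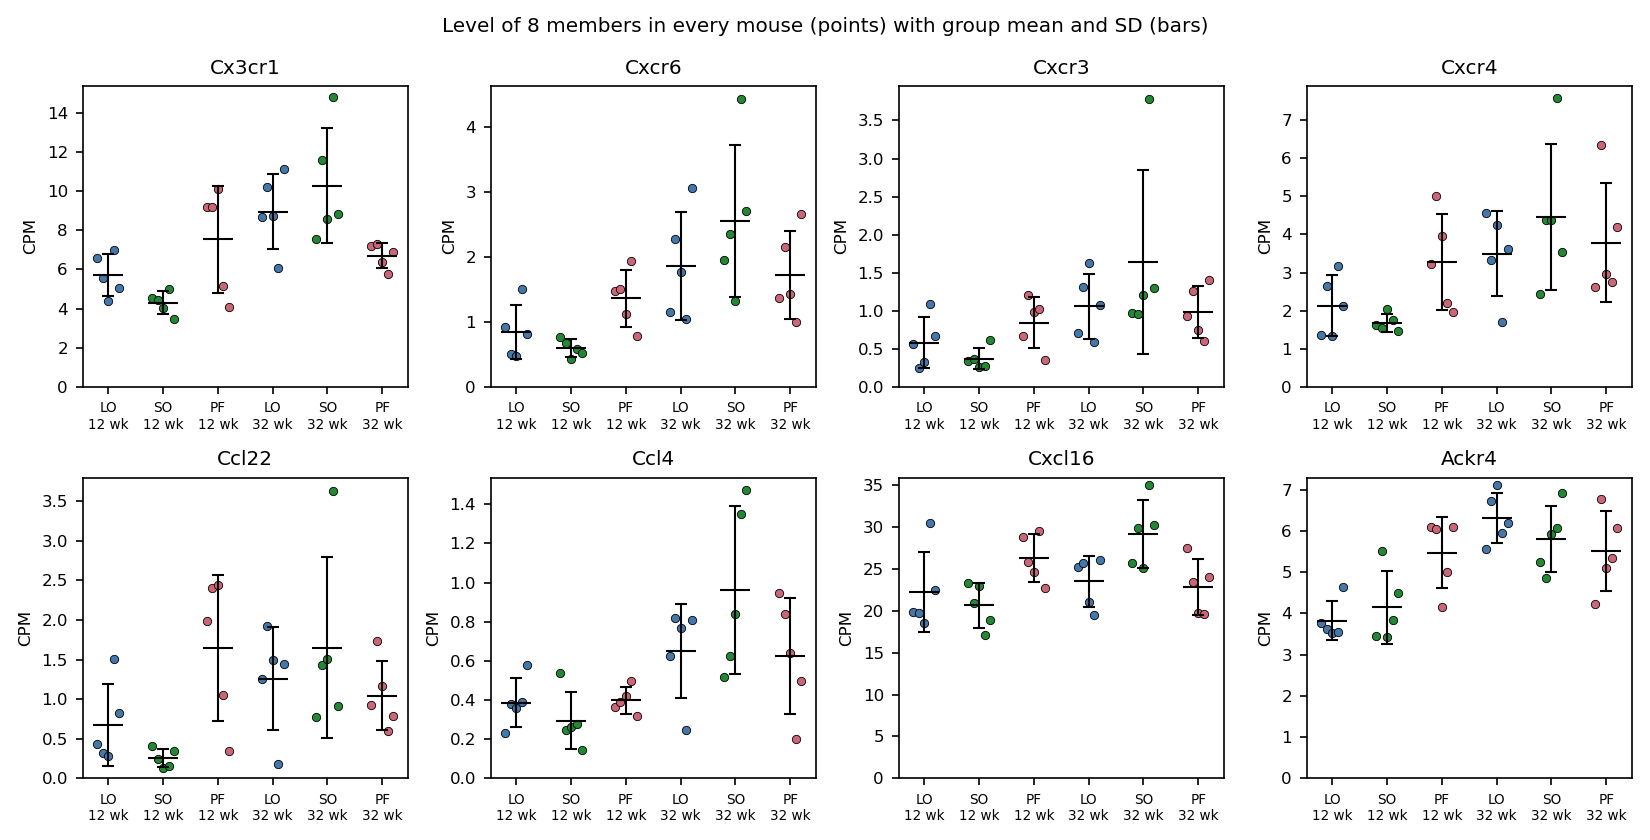
CPM of 8 members in each of the 30 mice (points), by diet and weeks on diet, with group mean and SD (bars, n = 5). The SO mice at 12 weeks lie between 3.46 and 5.02 for Cx3cr1 and those at 32 weeks between 7.56 and 14.8, and mouse 4 of the SO group at 32 weeks is the highest point for Cx3cr1, Cxcr6, Cxcr3, Cxcr4, Ccl22 and Cxcl16.

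Among the ligands, 7 of 26 were called, and they were Ccl22, Ccl4, Ccl5, Ccl3, Xcl1, Cxcl16 and Cxcl2. Ccl22, a ligand for Ccr4 made by dendritic cells and macrophages, had 0.402, 0.246, 0.132, 0.153 and 0.349 CPM in SO mice at 12 weeks and 0.779, 1.43, 1.51, 3.63 and 0.912 at 32 weeks. All older mice were above all younger ones, and the fold was 6.37 (log2 2.67, SE 0.59, edgeR adjusted p = 0.00929). Ccl4, an inflammatory chemokine of macrophages and T cells, had 0.536, 0.246, 0.263, 0.276 and 0.145 CPM at 12 weeks and 0.519, 0.625, 0.841, 1.35 and 1.47 at 32 weeks, with mouse 1 of each group in the overlap (log2 1.71, SE 0.38, edgeR adjusted p = 0.00953).

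Ccl3, a close relative of Ccl4 and a ligand of Ccr1, had 0.335, 0.123, 0.0329, 0.245 and 0.175 CPM at 12 weeks and 0.324, 0.684, 0.365, 1.23 and 1.06 at 32 weeks, which is a log2 rise of 1.99 (SE 0.50, edgeR adjusted p = 0.0168). Ccl5, made by T and NK cells, had 3.08, 1.72, 2.30, 1.62 and 2.47 CPM at 12 weeks and 5.26, 3.54, 2.36, 12.6 and 4.44 at 32 weeks. For both genes 1 older mouse fell within the range of the younger ones. Ccl5 rose by 1.33 on the log2 scale (SE 0.33, edgeR adjusted p = 0.0150), and by 0.79 without mouse 4, where its adjusted p was 0.117.

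Xcl1, the Xcr1 ligand of NK and CD8 T cells, had 1.11, 0.585, 0.230, 0.337 and 0.465 CPM at 12 weeks and 1.49, 1.19, 0.729, 1.80 and 1.53 at 32 weeks. The groups overlapped through mouse 1 of the younger and mouse 3 of the older group (log2 1.30, SE 0.34, edgeR adjusted p = 0.0212). Cxcl16, the membrane-bound ligand of Cxcr6, was an abundant member with a small rise. It had 23.4, 21.0, 22.9, 17.1 and 19.0 CPM at 12 weeks and 25.7, 29.96, 25.1, 35.0 and 30.3 at 32 weeks, with no overlap (fold 1.41, log2 0.50, SE 0.13, edgeR adjusted p = 0.0212). Cxcl2, a neutrophil chemoattractant, rose by 2.23 on the log2 scale (SE 0.61, edgeR adjusted p = 0.0272), from few counts and with an overlap. The calls of Xcl1, Cxcl16 and Cxcl2 were lost in 4, 3 and 5 of 10 fits without 1 mouse. Without mouse 4 of the older group Cxcl16 had a log2 fold change of 0.42 (edgeR adjusted p = 0.1004).

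The remaining 19 tested ligands were not called. Cxcl9 and Cxcl10 had log2 fold changes of 1.52 and 1.36 with edgeR adjusted p-values of 0.128 and 0.139. Of the abundant stromal and epithelial ligands, Cxcl12 had a log2 fold change of 0.28, Cxcl17 0.93, Cxcl14 -0.38 and Cxcl13 0.78, and none of these 4 passed. The estimates of Cxcl17 and Cxcl13 were larger than that of the called Cxcl16. For Cxcl17 every older mouse was above every younger one. Among the atypical receptors Ackr4, which takes up Ccl19, Ccl21 and Ccl25, had 3.45, 5.51, 3.42, 3.83 and 4.51 CPM at 12 weeks and 5.26, 4.85, 5.92, 6.08 and 6.91 at 32 weeks, an overlapping but called rise of 0.49 on the log2 scale (SE 0.15, edgeR adjusted p = 0.0427). That call of Ackr4 was lost in 7 of 10 fits without 1 mouse, with an edgeR adjusted p of up to 0.128. Ackr3 and Ccrl2, a chemerin-binding relative of the receptors, had log2 fold changes of -0.01 and 0.02.

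In all, 11 tested members had every older SO mouse above every younger one, beside 5.13% of all genes tested, and 0 had the reverse, beside 2.3%. These 11 were 7 receptors and 4 ligands, and included Ccl20 and Cxcl17, which edgeR did not call. Ccl20 and Cxcr5, both among the 11, did not pass the filter among the 12-week mice. They could hardly have shown the reverse and are no support for a rise. How much the calls rested on single mice was uneven. Without mouse 4 of the SO group at 32 weeks, 4 members were called (Cx3cr1, Cxcr6, Cxcr3 and Ccl4), while 1.35% of all genes were. Without mouse 4 or mouse 5 of the SO group at 12 weeks the count was 8 or 9, beside 3.07% and 2.92% of all genes. The 4 genes named were called whichever of the 10 mice was left out.

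Markers of leukocytes moved with these genes. The lists of markers were written with earlier results of these data known. In SO mice between 12 and 32 weeks, edgeR called higher 5 of 6 pan-leukocyte markers, 7 of 7 T cell markers, 5 of 5 NK cell markers, 4 of 6 B cell markers, 3 of 6 macrophage markers, 3 of 5 plasma cell markers, 2 of 6 dendritic cell markers, 1 of 3 tested neutrophil markers and 2 of 3 tested eosinophil markers, with 1 plasma cell marker lower. In the other lists, edgeR called higher 1 of 4 tested follicular dendritic cell markers, 1 of 5 blood endothelial markers and 2 of 4 prostate basal markers, and lower 1 of 6 luminal markers. No marker was called among those of lymphatic endothelium, smooth muscle, fibroblasts, adipocytes and red blood cells, nor for the 1 tested marker of high endothelial venules. Of all genes tested, 5.25% were called higher and 1.22% lower. The 6 pan-leukocyte markers together ranged from 66.2 to 76.3 CPM in SO mice at 12 weeks and from 97.5 to 240 CPM at 32 weeks. Mouse 4 was the one at 240 CPM, and its T cell and B cell sums of 45.4 and 90.4 CPM were the highest of all 30 mice. Without mouse 4 the markers called higher were 3 of 6 pan-leukocyte, 3 of 7 T cell, 3 of 5 NK cell, 1 of 6 dendritic cell and 1 of 3 tested eosinophil markers, and 0 of the B cell, plasma cell, macrophage and neutrophil lists. In the fit without mouse 4, 1.35% of all genes were called, higher or lower. The luminal sum was 226000 to 320000 CPM at 12 weeks and 144000 to 171000 CPM at 32 weeks. The part of these shifts in the results on chemokine genes was not tested.

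Set against the pan-leukocyte markers, the rises were smaller. Cx3cr1 stood at 4.53 to 7.50 CPM per 100 CPM of the 6 markers in SO mice at 12 weeks and at 6.17 to 9.20 at 32 weeks. For Cxcr6 the ranges were 0.645 to 1.13 and 1.02 to 2.38, for Cxcr3 0.397 to 0.8 and 0.755 to 1.57, and for Ccl4 0.190 to 0.783 and 0.495 to 1.30, so the groups of all 4 genes overlapped on this scale. These ratios were looked at after the levels had been seen and are given without a test.

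**Figure D3:**
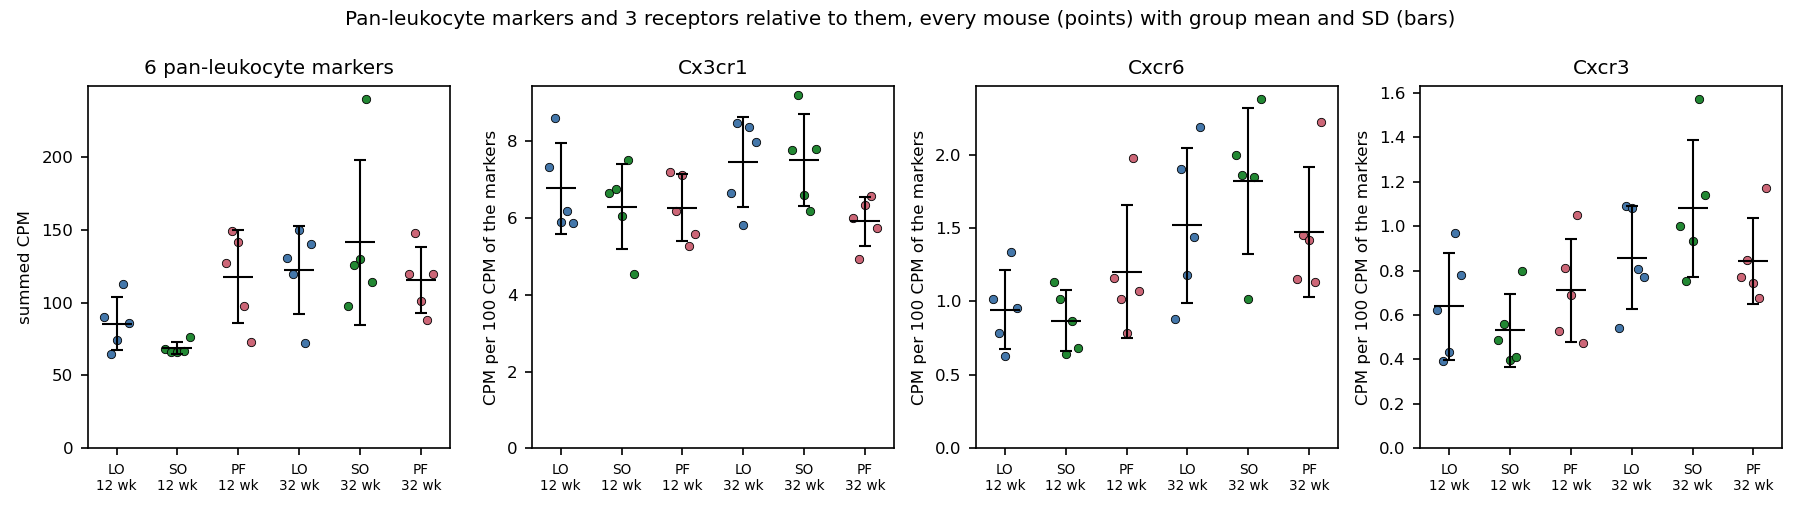
Summed CPM of 6 pan-leukocyte markers (left) and CPM of Cx3cr1, Cxcr6 and Cxcr3 per 100 CPM of these markers, for each of 30 mice (points) with group mean and SD (bars, n = 5). SO mice at 12 weeks are low in the sum (66.2 to 76.3 CPM), and for Cxcr3 they lie at 0.397 to 0.8, beside 0.755 to 1.57 in the SO mice at 32 weeks.

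The same interval on the other diets gave fewer calls. In LO mice 1 tested member was called higher and 1 lower, beside 1.74% and 0.958% of all genes, with a median log2 fold change of 0.70 over the tested members. These include Ccl17, Ccl20, Ccr3, Ccr6 and Cxcr5, which did not pass the filter among the 12-week mice. Ackr4 had 3.76, 3.63, 3.52, 3.54 and 4.65 CPM at 12 weeks and 5.57, 6.73, 7.11, 5.96 and 6.18 at 32 weeks. Its groups did not overlap, beside 1.99% of all genes with every older mouse higher (log2 0.72, SE 0.15, edgeR adjusted p = 0.0146), and it was called whichever LO mouse was left out. Cxcl14 fell by 0.53 on the log2 scale (SE 0.14, edgeR adjusted p = 0.0391), from 88.8, 60.5, 104, 92.1 and 85.3 CPM to 65.0, 63.8, 61.6, 52.6 and 54.3. Mouse 2 of the younger group was the exception within the older range, and the call was lost in 9 of 10 fits without 1 mouse. In the same LO mice the sum of the luminal markers was 204000 to 326000 CPM at 12 weeks and 107000 to 199000 CPM at 32 weeks, with 1 of 6 luminal markers called lower. edgeR called higher 3 of 4 basal, 3 of 5 plasma cell, 2 of 5 NK cell, 2 of 3 tested eosinophil, 1 of 6 dendritic cell and 1 of 5 lymphatic endothelial markers. The part of these shifts in the results on Ackr4 and Cxcl14 was not tested.

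The LO result depended on 1 older mouse and on the tool. Mouse 4 of the LO group at 32 weeks was the lowest of its group for 26 of the 43 tested members, with 6.05 CPM of Cx3cr1 beside 8.68 to 11.1 in the other 4, and its pan-leukocyte sum was 72.4 CPM beside 120 to 150. Without it 9 members were called, and all of them were higher at 32 weeks: Ackr4, Ackr1, Cxcl13, Ccl9, Ccl6, Cxcl12, Cx3cr1, Cxcr6 and Cxcl17. Over all genes 6.22% were called in that fit. DESeq2's Wald test, with every mouse in, called 10, beside 6.47% of all genes.

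In PF mice no tested member was called by edgeR, beside 0.0301% of all genes, nor by DESeq2, beside 0.307%. At an unadjusted p under 0.05, 2 were higher and 2 lower, beside 4.98% and 5.23% of all genes. The smallest p was that of Cxcl14, whose log2 fold change was -0.52 (SE 0.14, edgeR adjusted p = 0.193), from 104, 63.8, 91.6, 88.2 and 61.9 CPM to 70.2, 53.6, 49.0, 51.6 and 60.5. Cxcl14 was thus lower by point estimate at 32 weeks on all 3 diets, called in LO. Ccrl2 followed in PF mice with a log2 fold change of -0.49 (SE 0.15, edgeR adjusted p = 0.264). Receptors gave a median of 0.22 here, and Cx3cr1, which did not pass, had 9.17, 9.18, 10.1, 5.13 and 4.08 CPM at 12 weeks and 7.17, 7.31, 6.39, 5.77 and 6.89 at 32 weeks.

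**Figure D4:**
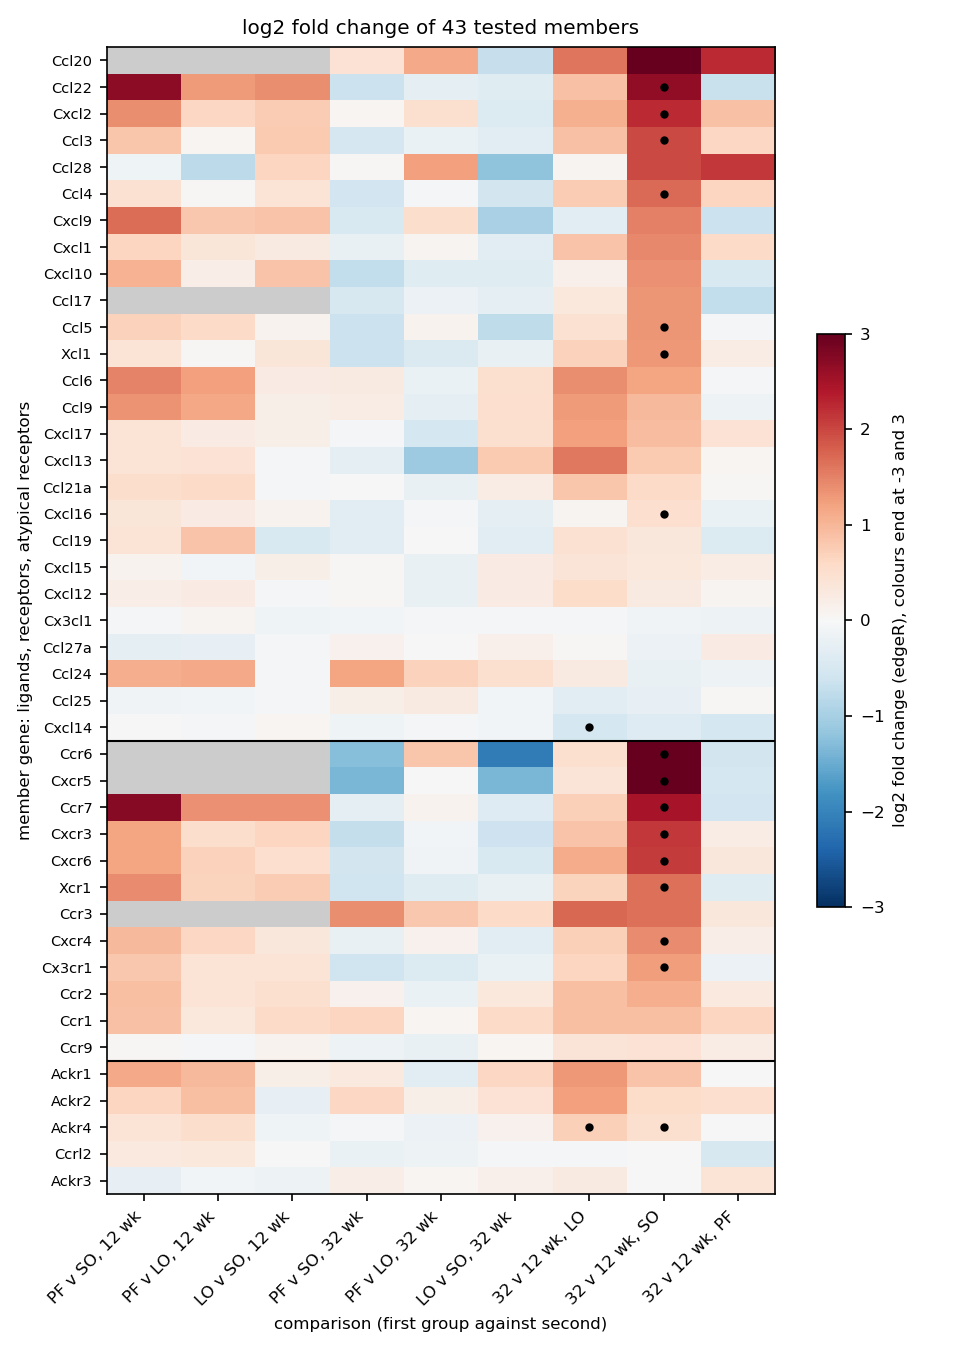
log2 fold change of the 43 tested members (vertical axis, grouped as ligands, receptors and atypical receptors) in 9 comparisons (horizontal axis). Black dots mark an edgeR adjusted p under 0.05 and grey cells members not tested at 12 weeks. The column for SO at 32 against 12 weeks holds 16 dots, LO holds 2, and the diet comparisons hold none.

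The diets themselves were compared at each time point. At 12 weeks edgeR called no member in PF against SO, PF against LO or LO against SO, and 0% of the 15873 genes tested. For PF against SO, 17 of 38 tested members were higher and 0 lower at an unadjusted p under 0.05, beside 6.14% and 1.86% of all genes, and DESeq2 called 6, all higher in PF (Ccl22, Ccr7, Ccl9, Xcr1, Ccl6 and Cx3cr1), beside 1.19% of all genes. All 9 tested receptors had a positive fold change, as did 44.8% of all genes, and 3 of them (Ccr7, Xcr1 and Cxcr6) had every PF mouse above every SO mouse, beside 1.13%. These SO mice are the ones that served as the younger group in the comparison of 32 with 12 weeks, so the 2 results are not separate evidence, and their values are given side by side. Leukocyte markers were higher in PF as well at an unadjusted p under 0.05, with 6 of 6 pan-leukocyte, 6 of 6 macrophage, 5 of 7 T cell, 4 of 4 tested B cell, 4 of 4 tested NK cell and 4 of 6 dendritic cell markers, and edgeR called none of them. Their part in the result was not tested.

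Ccr7 had 0.803, 2.07, 1.15, 1.13 and 0.549 CPM in PF mice at 12 weeks and 0.235, 0.154, 0.0988, 0.0919 and 0.262 in SO mice. The groups did not overlap, and the log2 fold change was 2.74 (SE 0.70), with an adjusted p of 0.167 in edgeR and 0.0155 in DESeq2. Ccl22 had 1.99, 2.41, 2.45, 1.05 and 0.347 CPM in PF mice and 0.132 to 0.402 in SO mice. Mouse 5 of the PF group lay inside the SO range (log2 2.67, SE 0.57, edgeR adjusted p = 0.138). That mouse was the lowest of its group for 24 of the 43 members, with a pan-leukocyte sum of 73.1 CPM beside 97.7 to 149 in the other PF mice. Without it edgeR called 3 members (Ccl22, Cx3cr1 and Ccl6), beside 0.818% of all genes.

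The inflammatory ligands of the 12-week PF mice were uneven. Mouse 4 had 16.0 CPM of Cxcl9 and 15.2 of Cxcl10, whereas the other 4 PF mice had 1.76 to 3.14 and 2.38 to 3.27. Mouse 1 had 8.62 CPM of Ccl24, an eotaxin that attracts eosinophils through Ccr3, and the others 1.08 to 2.17. Ccl9, a myeloid ligand for Ccr1, had 30.8, 13.2, 23.0, 7.70 and 8.61 CPM in PF mice beside 3.69 to 10.2 in LO mice, an overlapping difference of 1.16 on the log2 scale (SE 0.36, edgeR adjusted p = 0.413). For PF against LO, 10 tested members were higher and 0 lower at an unadjusted p under 0.05, beside 4.31% and 4.93% of all genes, and DESeq2 called 0 members, beside 0.523%. The smallest p was that of Ackr4 (log2 0.52, SE 0.16, edgeR adjusted p = 0.405), which had 6.08, 6.05, 4.16, 4.997 and 6.10 CPM in PF mice. Leukocyte markers were higher in PF than in LO mice too at an unadjusted p under 0.05. They were 5 of 6 pan-leukocyte, 3 of 6 macrophage, 3 of 6 dendritic cell, 3 of 4 tested plasma cell and 2 of 4 tested NK cell markers. Also higher were 1 of 7 T cell and 1 of 2 tested neutrophil markers. edgeR called none of them, and their part in the result was not tested.

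For LO against SO at 12 weeks 1 tested member was higher at an unadjusted p under 0.05, beside 2.52% of all genes, and DESeq2 called 0 members and 0% of all genes. It was Ccl22, with a log2 fold change of 1.40 (SE 0.58), and Xcr1 followed at 0.76 (SE 0.37). Both edgeR adjusted p-values were 0.999. There were 0 members with every LO mouse above every SO mouse, beside 0.384% of all genes.

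At 32 weeks edgeR again called no member and 0% of 16218 genes in any of the 3 diet comparisons. For PF against SO, 1 tested member was higher and 3 were lower at an unadjusted p under 0.05, beside 5.71% and 5.07% of all genes. The higher one was Ccl24, with 2.22, 4.19, 2.22, 1.45 and 2.73 CPM in PF mice and 0.844, 0.833, 1.32, 0.959 and 1.77 in SO mice. Mouse 4 of the PF group lay within the SO range. Its log2 fold change was 1.18 (SE 0.30), with an adjusted p of 0.278 in edgeR and 0.0301 in DESeq2, which called no other member, beside 0.413% of all genes called higher. The lower ones were Cx3cr1, Cxcl16 and Xcl1. Cx3cr1 had 7.17, 7.31, 6.39, 5.77 and 6.89 CPM in PF mice, all under the SO range of 7.56 to 14.8, and its log2 fold change was -0.59 (SE 0.19, edgeR adjusted p = 0.349). It was 1 of 43 tested members with all PF mice below all SO mice, beside 1.2% of all genes. At an unadjusted p under 0.05, 5 of 5 red blood cell, 3 of 5 adipocyte, 2 of 6 luminal, 1 of 5 plasma cell and 1 of 6 dendritic cell markers were higher in PF. Lower were 2 of 5 NK cell, 1 of 6 dendritic cell, 1 of 4 tested follicular dendritic cell and 1 of 5 smooth muscle markers. edgeR called none of them, and their part in these results was not tested.

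The comparisons with LO at 32 weeks gave fewer members. For PF against LO 1 tested member was higher (Ccl24, log2 0.70, SE 0.29) and 1 lower (Cx3cr1, log2 -0.40, SE 0.19) at an unadjusted p under 0.05, beside 4.48% and 4.12% of all genes, with edgeR adjusted p-values of 0.529 and 0.575. For LO against SO, 0 were higher and 2 lower, beside 1.5% and 1.99% of all genes: Cxcl16 (log2 -0.30, SE 0.13) and Ccr6 (log2 -2.10, SE 0.97), both with an edgeR adjusted p of 0.9997. DESeq2 called no member in these 2 comparisons, beside 0.524% and 0.0432% of all genes.

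Whether the change with time differed between diets was tested as an interaction. edgeR called no member and 0% of 16605 genes for any pair of diets. For PF against SO, 17 of the 43 tested members had a lower log2 change in PF at an unadjusted p under 0.05. There were 0 with a higher one, beside 6.65% of all genes lower and 2.84% higher. The median difference was -0.86 on the log2 scale. All 12 tested receptors had a negative estimate, while 49.2% of all genes had a positive one. Ccr3, Ccr6 and Cxcr5 among them did not pass the filter among the 12-week mice. Their sign is in part given by how they entered the test. The same limit applies to Ccl17 and Ccl20 in the counts and the median, and to the other pairs of diets. The SO mice at 12 weeks enter this contrast as well. It is therefore not separate evidence from the change in SO mice or from PF against SO at 12 weeks. DESeq2 called 2 members, both with a lower log2 change in PF, beside 0.253% of all genes. They were Cx3cr1, whose edgeR estimate was -1.42 (SE 0.30, adjusted p = 0.158), and Ccl22 at -3.33 (SE 0.79, adjusted p = 0.221). From 12 to 32 weeks their folds were 0.891 and 0.633 in PF mice, neither called, and 2.39 and 6.37 in SO mice. For PF against LO 7 were lower and 0 higher at an unadjusted p under 0.05, beside 4.19% and 3.61%, led by Ackr4 (-0.72, SE 0.20, edgeR adjusted p = 0.452). For LO against SO 6 were lower and 0 higher, beside 2.23% and 1.1%. DESeq2 called 0 members in both, beside 0.0843% and 0% of all genes. The calls in SO and their absence in PF are therefore not shown by edgeR to be a difference between the diets.

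Ligands and receptors were followed across mice within groups. From 22 ligand and receptor pairs known from textbooks, 14 had both genes tested, and the log2 CPM (prior count 2) of each was taken as its deviation from the mean of its diet and time group over the 30 mice. Pearson's r was positive in 13 of 14 pairs, and 3 passed after Benjamini-Hochberg adjustment of permutation p-values over the 14 pairs (100000 permutations within groups, two-sided). Cxcl16 and Cxcr6 were the closest, with r = 0.69 (permutation p = 0.00028, adjusted 0.0039) and Spearman's rho = 0.66 (permutation p = 0.00036, adjusted 0.005). Without the 2 mice farthest from the median of Cxcl16, r was 0.67. Cxcl9 and Cxcr3 gave r = 0.66 (permutation p = 0.0011, adjusted 0.0079) and rho = 0.62 (permutation p = 0.0017, adjusted 0.012), and r = 0.60 without 2 mice.

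Ccl19 and Ccr7, a pair of lymphoid tissue, gave r = 0.58 (permutation p = 0.0025, adjusted 0.012) and rho = 0.58 (permutation p = 0.0033, adjusted 0.015), and r = 0.51 without 2 mice. Cxcl12 and Cxcr4 did not pass on r (0.47, permutation p = 0.025, adjusted 0.07) but did on rho (0.51, permutation p = 0.015, adjusted 0.043), with r = 0.56 without 2 mice. The same held for Ccl21a and Ccr7, with r = 0.46 (permutation p = 0.016, adjusted 0.056) and rho = 0.48 (permutation p = 0.013, adjusted 0.043), and r = 0.36 without 2 mice. The one pair with a negative sign was Cx3cl1 and Cx3cr1, with r = -0.25 (permutation p = 0.24, adjusted 0.27) and rho = -0.28 (permutation p = 0.18, adjusted 0.25). Without mouse 4 of the SO group at 32 weeks 1 pair passed, Cxcl16 and Cxcr6, which passed whichever mouse was left out. The content of leukocytes varied between these mice as given above, and its part in the correlations was not tested.

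**Figure D5:**
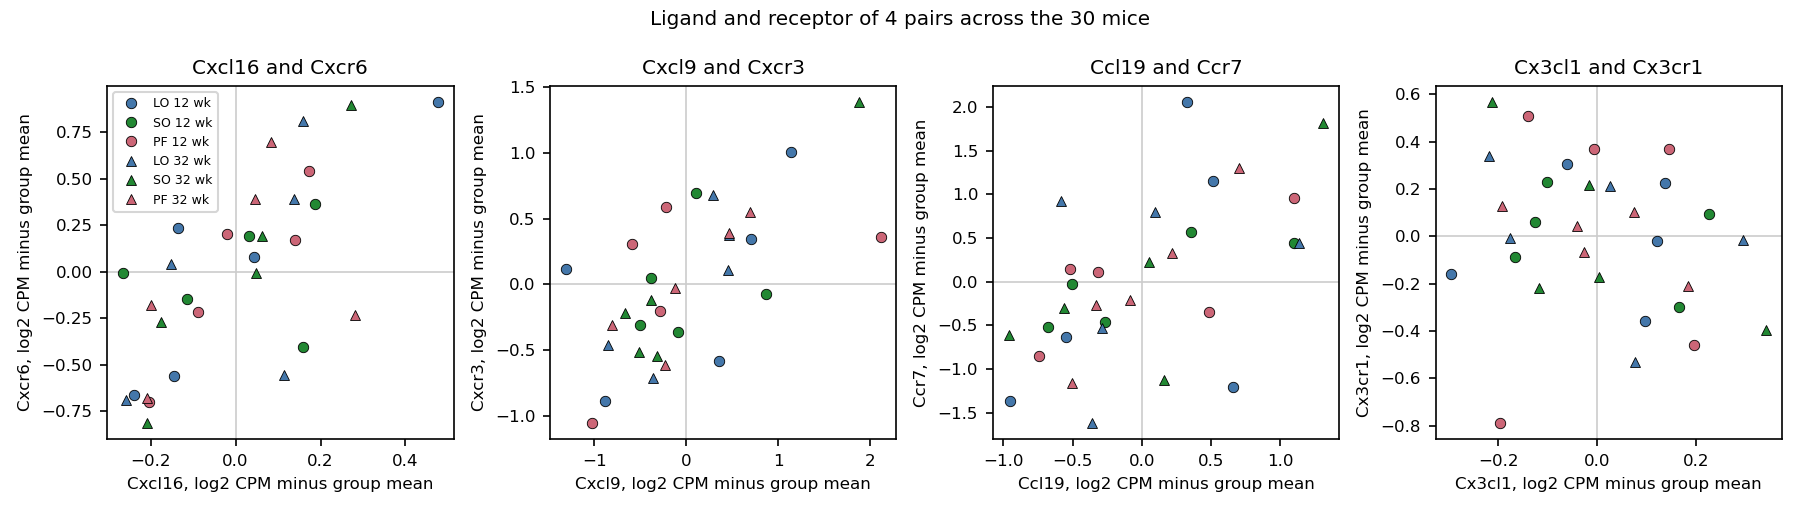
log2 CPM minus the group mean of the ligand (horizontal) and receptor (vertical) of 4 pairs in 30 mice, coloured by diet, circles for 12 and triangles for 32 weeks. Cxcl16 and Cxcr6 (r = 0.69), Cxcl9 and Cxcr3 (r = 0.66) and Ccl19 and Ccr7 (r = 0.58) rise together, and Cx3cl1 and Cx3cr1 (r = -0.25) do not.

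Genes that act downstream of the receptors were read from 57 listed genes, of which 55 were tested. In SO mice at 32 against 12 weeks, 13 were called higher and 0 lower, beside 5.25% and 1.22% of all genes, with a median log2 fold change of 0.15. Of the Rac and actin regulators of leukocyte migration 5 of 12 were called, among them Vav1 (log2 1.63, SE 0.28), Rac2 (1.60, SE 0.37) and Was (1.45, SE 0.36), with edgeR adjusted p-values of 0.00266, 0.0113 and 0.0155. Of the lipid signalling enzymes 3 of 8 were called (Pik3r5, Plcb2 and Pik3cd), of the tyrosine kinases 1 of 7 (Fgr), of the proteases and glycans that act on chemokines 2 of 9 (Adam17 and Mmp12), of the G proteins 1 of 8 tested (Gng2), and of the kinases, arrestins and RGS proteins that end receptor signalling 1 of 10 (Rgs1). The 1 tested platelet chemokine with an older name was not called. Vav1, Rac2, Was, Fgr and Pik3cd are known as genes used mainly by blood cells. In LO mice 1 of the 55 was called higher and 1 lower, beside 1.74% and 0.958% of all genes, and none was called in the other 10 comparisons by edgeR.

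The promoters of members that moved together were read from RefSeq windows (GRCm38.p6, 250 bases before the start of the gene), which were found for 36 of the 43 tested members and 11 of the 16 called in SO mice. The consensus site of NF-kappaB was present on either strand in 25.0% of the members' windows, beside 7.01% of the 27025 windows of all genes, but in 1 of the 11 windows of called members (Cxcl2). The TATA box (TATAAA) was in 25.0% of the members' windows beside 13.0% of all, and the ETS core (GAGGAAG) in 13.9% beside 10.4%. The interferon-stimulated response element was in 8.33% beside 3.04%, and the gamma-interferon activation site (TTCNNNGAA) in 8.33% beside 7.18%. These are matches of letters, not evidence of binding. Matches to the NF-kappaB site overlapped each other in Cxcl1, Cxcl2 and Cxcl10, as did TATA boxes in Cxcr4 and Ccl9.

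Stretches that end at or shortly before the annotated start are shown for 4 called members (Cxcr4, Ccr6, Cxcl2 and Ccl3) and, to set beside them, for 2 inflammatory ligands that were not called (Cxcl10 and Ccl9). They are written 5′ to 3′ on the strand of the gene, upstream of the first exon, with matches to these motifs in capitals.
Cxcr4 (chr1:128592300-128592449, minus strand, a TATA box): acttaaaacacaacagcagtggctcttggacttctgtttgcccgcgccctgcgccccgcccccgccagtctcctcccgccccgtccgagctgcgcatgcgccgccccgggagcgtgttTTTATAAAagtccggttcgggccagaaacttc
Ccr6 (chr17:8235893-8236042, plus strand, a gamma-interferon activation site): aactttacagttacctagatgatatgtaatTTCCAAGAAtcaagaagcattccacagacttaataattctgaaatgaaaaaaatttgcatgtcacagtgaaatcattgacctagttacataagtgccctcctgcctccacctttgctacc
Cxcl2 (chr5:90903749-90903870, plus strand, the NF-kappaB site): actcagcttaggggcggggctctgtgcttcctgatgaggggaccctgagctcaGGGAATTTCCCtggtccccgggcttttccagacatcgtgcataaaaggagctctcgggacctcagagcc
Ccl3 (chr11:83649379-83649528, minus strand, no match in this stretch): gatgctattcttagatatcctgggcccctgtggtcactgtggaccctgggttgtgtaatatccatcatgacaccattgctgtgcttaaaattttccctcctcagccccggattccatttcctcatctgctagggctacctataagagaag
Cxcl10 (chr5:92348890-92349039, minus strand, the NF-kappaB site): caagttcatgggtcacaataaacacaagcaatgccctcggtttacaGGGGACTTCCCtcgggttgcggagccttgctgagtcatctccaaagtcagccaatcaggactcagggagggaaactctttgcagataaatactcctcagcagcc
Ccl9 (chr11:83578637-83578786, minus strand, a TATA box and the NF-kappaB site): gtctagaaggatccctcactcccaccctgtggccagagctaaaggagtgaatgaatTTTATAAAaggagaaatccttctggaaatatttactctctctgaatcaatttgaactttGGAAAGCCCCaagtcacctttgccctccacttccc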

How the data were processed

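RNA from the ventral prostate of 30 mice was sequenced from poly(A) libraries of a stranded kit. Per the submitters' processing notes, TopHat2, HTSeq and DESeq2 were used with the mouse genome GRCm38.p6, and the authors deposited 1 table of raw counts of read pairs per Ensembl gene and mouse, without normalization. The annotation release and the strand setting of the counting are not given in the sources used here. The 5 summary lines of HTSeq were left out of library sizes. As a percentage of the counts on genes and summary lines together, they held 6.67 to 12.2 for pairs on no gene. They held 0.831 to 1.18 for ambiguous pairs and 16.0 to 20.3 for pairs without a unique place. Symbols, positions and exon lengths came from GENCODE M21 (37693 of 39179 identifiers), and promoters from RefSeq.

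Groups were taken from the sample titles. Diets were compared in one fit of the 15 mice of a time point, and time points and interactions in one fit of all 30, with edgeR 4.0.16 in R 4.3.3 (filter by expression, TMM, two-sided quasi-likelihood test, Benjamini-Hochberg adjustment over all genes, threshold 0.05). SE were derived from the F statistic. Labels do not say whether mice shared a cage or litter, so p-values measure the spread between these mice. Named with values were the 12 called members with the smallest adjusted p, the 2 members with the smallest p in each comparison, the genes of the pairs, and members called by DESeq2 1.42.0. Other members were named after their values were seen. Members, pairs and lists (leukocyte classes, vessel, stromal and epithelial cells, genes downstream of the receptors) were chosen with earlier results of these data known. Of the genes these rules gave, 1 member and 1 gene downstream of the receptors are not reported here, and they were left out of the counts of members, lists and pairs but not of the fits. The scripts were tested on simulated data.

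Alternatives were DESeq2's Wald test, relative log expression scaling in place of TMM, a filter of 10 counts in every sample or none, all 6 groups in one fit for the diets, a block for the replicate number, leaving out the mice numbered 1 or each mouse in turn, and a prior count of 0.5 for the correlations. The 4 members also read relative to leukocyte markers were chosen afterwards.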

Additional observations from a re-analysis of the deposited data

Results flagged for a closer look

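Within groups of 5 mice, 4 of 114 sets of values had 1 mouse standing apart from its group by Dixon's criterion on log2 CPM (gap over range above 0.71), where chance gives about 1 in 20. They were Cxcr3 in mouse 4 of the SO group at 32 weeks (3.78 CPM, the highest), Ccl22 and Ccl4 in mouse 4 of the LO group at 32 weeks (0.184 and 0.246 CPM, the lowest) and Ackr4 in mouse 5 of the LO group at 12 weeks (4.65 CPM, the highest). The SO mouse had the highest and the LO mouse the lowest pan-leukocyte sum of its group, at 240 and 72.4 CPM.

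For 2 members the change from 12 to 32 weeks differed between PF and SO mice in DESeq2's interaction test, with log2 differences of -1.41 for Cx3cr1 (adjusted p = 0.0118) and -3.34 for Ccl22 (adjusted p = 0.0226). edgeR gave the same direction and called neither.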

How the results depend on the processing

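The count of members called between 12 and 32 weeks was 16 in SO mice and ranged from 4 to 18 when 1 mouse was left out. The share of all genes called also moved in these fits, from 1.35% to 9.28%. The count of members was 18 by DESeq2, beside 6.74% of all genes called higher and 2.38% called lower. It was 6 with at least 10 counts in every sample, where fewer genes were tested. In LO mice it was 2, with a range of 1 to 9 without 1 mouse, beside 0.28% to 6.22% of all genes. It was 10 by DESeq2, beside 6.47%, and 1 without the mice numbered 1, beside 2.78%. With no filter and with at least 10 counts in every sample it was 1 each. The shares of all genes under these other filters are not given here. The counts of 0 became 6 for PF against SO at 12 weeks, 1 for PF against SO at 32 weeks and 2 for the difference of the time changes of PF and SO, all by DESeq2. Beside them stood 1.19%, 0.413% and 0.253% of all genes called in the same direction. Without 1 mouse the counts ranged from 0 to 3, 0 to 0 and 0 to 1. For PF against SO at 12 weeks the share of all genes in these fits reached 0.818%. The other comparisons ranged from 0 to 0. The 3 correlated pairs became 1 to 6 without 1 mouse. The causes were not tested unless given. No called member changed sign in a fit without 1 mouse, whereas values near 0 could: Ccrl2 in SO mice went from 0.02 to -0.0083 without mouse 4 of the older group.

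Same-numbered mice had a mean r of deviations of 0.0559 at 12 and 0.132 at 32 weeks, with 5 and 10 of 15 pairs over 0.1. Mice with different numbers had means of -0.0137 and -0.0291. Of 15 mice, 3 and 6 were closest to their own number. The labels do not say what the numbers mark, and whether such mice share more than a number was not settled. The main fits left the number out. With a replicate block 14 members were called in SO mice, beside 7.37% of all genes, where Cxcr5 and Ccr7 had adjusted p-values of 0.0578 and 0.0655, and 6 pairs passed. Members with few counts, such as Ccr6 and Ccl20, are limited by depth.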
